A study of Homo sapiens with 3 samples.

Results

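Lysosomal enzymes, lysosomal membrane proteins and the vacuolar proton pump were followed in MV-4-11 cells as 33 genes, named one by one, of the 20332 genes in the deposited expression table. All 33 were found by their symbol, and 30 of them carry the KEGG lysosome pathway in the table's own annotation. They fall into 10 proteases, 9 glycosidases and lipid hydrolases, 3 soluble proteins without enzyme activity of their own, 6 membrane proteins and 5 proton pump genes. The genes are listed by name and role. MV-4-11 is a human leukaemia line known for rearranged KMT2A and for duplicated sequence in the receptor gene FLT3, and its genotype is labelled wild type in every group. The groups were cells given FL-Fc-DM1 at 0.5 nM for 1 day, cells given FL-Fc-DM1 at 1.5 nM for 1 day, and untreated cells cultured for 1 day, with 1 polyA RNA library in each. By its name FL-Fc-DM1 couples the ligand of FLT3 and an Fc domain to the maytansinoid DM1, a microtubule poison. The drug columns of the table carry only the numbers 1 and 2, which were read as 0.5 nM and 1.5 nM, so an exchange of these columns would exchange every statement on dose.

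The lysosome is the acidic compartment in which cells break down proteins, lipids and sugar chains taken in from outside or delivered by autophagy. A proton pump, the V-ATPase, acidifies it, and the acid lets the cathepsins and the other hydrolases work. Conjugates of DM1 are taken up with their receptor and carried to lysosomes, where the protein part is degraded and the drug is set free. Myeloid cells, from which this leukaemia derives, are known for a large lysosomal system.

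Estimated counts summed to 22329981 without drug, 16427218 at 0.5 nM and 16864875 at 1.5 nM. All 12 myelomonocytic markers were present in each library, from 4.29 to 2676 TPM (a level scaled to gene length and library total) in untreated cells. The 6 lymphocyte markers together had 10 counts in untreated cells, 9 at 0.5 nM and 15 at 1.5 nM, with MS4A1, CD3D and CD3E at 0 throughout, although the line is labelled as having B-lineage features. By a rule counted for the 1.5 nM library alone, 50 of the 20332 genes had at most 2 counts there and at least 10 in both others. Only genes whose counts were whole numbers could meet it, which leaves out 6 of the 33 lysosomal genes. None of the 33, and 0 of the other lysosome-related genes below, is among the 50. That is too small a share of all genes for their absence to be informative. LGMN, with 12 counts in untreated cells, 6 at 0.5 nM and 0 at 1.5 nM, missed the rule at 0.5 nM. The 7 epithelial markers together had 143 counts in untreated cells, 104 at 0.5 nM and 75 at 1.5 nM, with EPCAM at 0 throughout and DSP at 32, 27 and 0 counts in that order. With 1 library per group no test between groups is possible, so every ratio compares libraries and has no replicate check. Intervals in square brackets are exact 95% intervals of a log2 ratio from the 2 counts and cover counting error only.

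At 1.5 nM most lysosomal genes stood slightly higher than in untreated cells, and no analysed member reached 2-fold, where 1.47% of all genes were higher and 0.574% lower by that much. Of the 32 genes that averaged at least 1 CPM (a count scaled to library size), 30 had a log2 ratio above 0, against 49.8% of all 11322 genes analysed. Past a log2 ratio of 0.322 in size, the threshold used for a visible step, 13 of the 32 stood higher and 0 lower, where the shares of all genes were 12.0% higher and 8.96% lower. The median log2 ratio was 0.23 over the 32 genes and -0.001 over all genes. Those 13 genes were CTSA, CTSB, CTSD, CTSH and CTSL among the proteases, FUCA1, GAA, NEU1, ASAH1 and MANBA among the hydrolases, PSAP and GRN among the soluble proteins, and MCOLN1 in the membrane. None of the 5 proton pump genes was among them. GUSB and ATP6V1A were the only analysed members below 0.

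At 0.5 nM the ratios to the control were smaller. Above 0 stood 26 of the 32 genes, against 50.6% of all genes, and their median was 0.085, against 0.002. Past the threshold of 0.322, 1 gene (FUCA1) stood higher and 1 gene (CTSL) lower, which is no more than the 7.26% higher and 4.52% lower among all genes. No member reached 2-fold at 0.5 nM, where 0.530% of all genes were higher and 0.230% lower by that much. Set directly against the 0.5 nM library, the 1.5 nM library had 28 of 32 members above 0, against 50.1% of all genes, with a median of 0.088. There 8 members stood higher by 0.322 or more and 0 lower, where the shares of all genes were 8.43% and 7.11%, and CTSA lay just under the threshold at 0.321. At 2-fold, the only analysed member that far from 1 in any of these comparisons was CTSL at 1.5 nM against 0.5 nM, where 0.477% of all genes were that much higher. The control is shared by both dose comparisons, and the 0.5 nM library by its comparisons, so these counts do not stand as separate evidence.

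**Figure D1:**
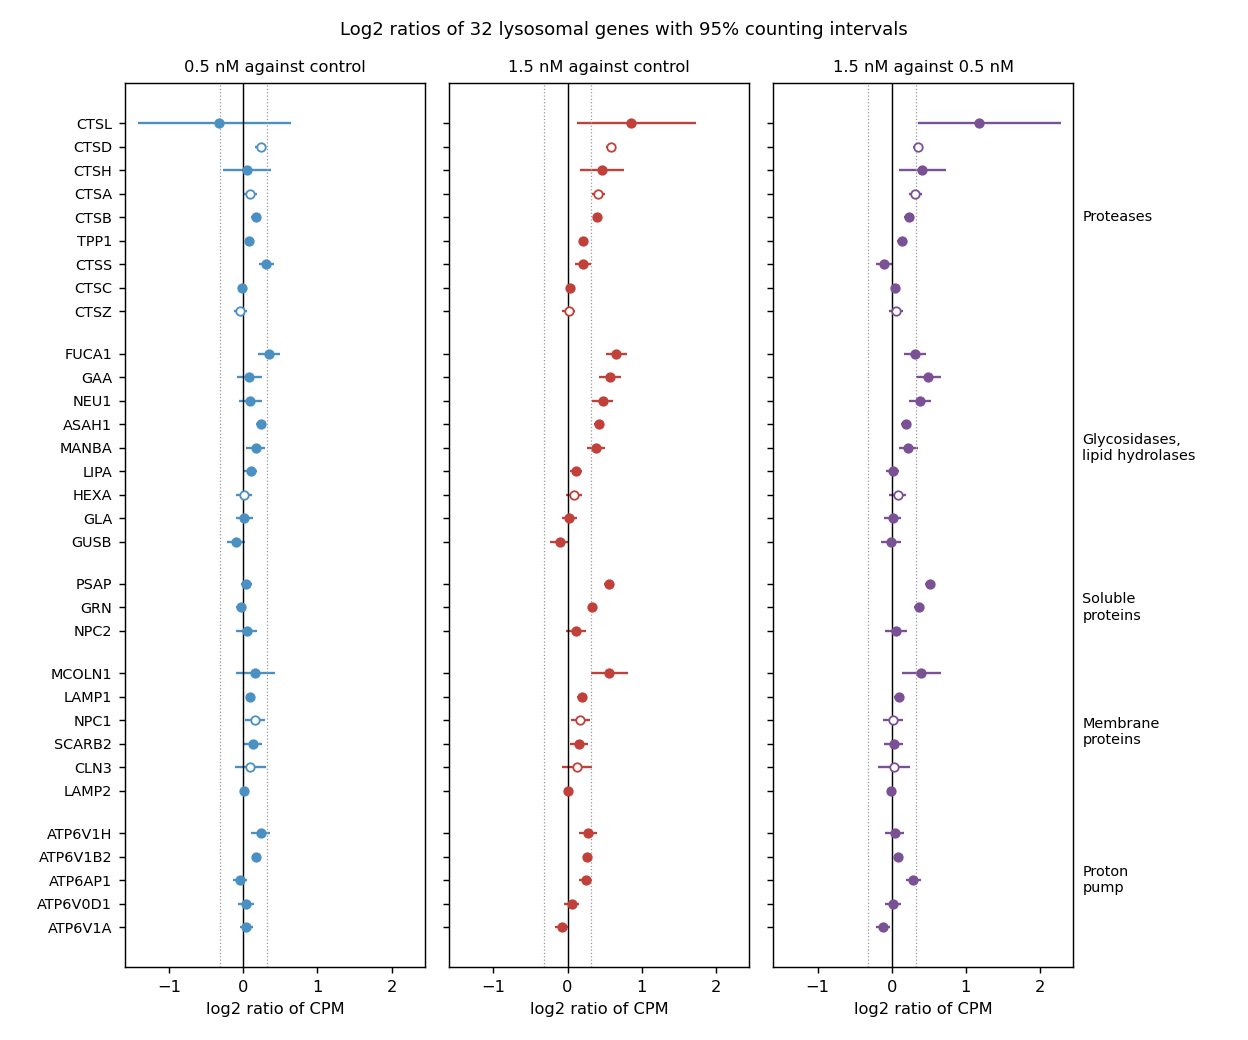
Log2 ratio of TMM-scaled CPM (x axis) of the 32 analysed lysosomal genes, grouped by role, for 0.5 nM against control, 1.5 nM against control and 1.5 nM against 0.5 nM. Points are single ratios, bars are 95% counting intervals, open points mark genes whose counts were not whole numbers, and dotted lines mark a log2 ratio of 0.322 in either direction. At 1.5 nM against control, 30 of 32 points lie right of 0, and CTSL has the widest bar.

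**Figure D2:**
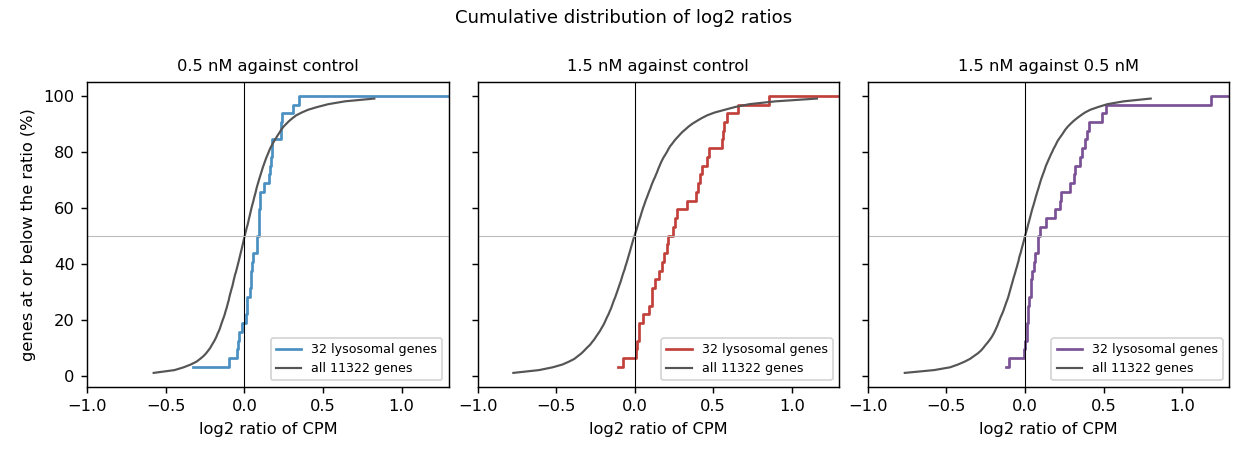
Percentage of genes (y axis) at or below a log2 ratio (x axis) for the 32 lysosomal genes, in colour, and all 11322 genes, in grey, in each comparison. The coloured line crosses 50% at a median of 0.085 at 0.5 nM against control, 0.23 at 1.5 nM against control and 0.088 at 1.5 nM against 0.5 nM.

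By level, the proteases were the largest class. The 33 genes together made up 0.311% of all TPM in untreated cells, 0.345% at 0.5 nM and 0.374% at 1.5 nM, with sums of 3105, 3454 and 3737 TPM in that order. Proteases held 33.9% of the members' summed TPM in untreated cells, 34.1% at 0.5 nM and 34.6% at 1.5 nM. Membrane proteins held 16%, 15.7% and 14.9%, and the proton pump genes 16.8%, 17.2% and 16.4%, in the same order. The shares of the classes thus differed by little between libraries. In the control the highest level was that of CTSC at 291.9 TPM, followed by ATP6V1B2 at 246.2, LAMP2 at 240.6, GRN at 200.9 and LAMP1 at 177.0 TPM. CTSC, ATP6V1B2, LAMP2 and GRN kept the ranks 1 to 4 in all 3 libraries. CTSD stood at rank 8 in untreated cells and at 0.5 nM, and at rank 5 at 1.5 nM. LAMP1 held rank 5 in untreated cells and at 0.5 nM and rank 8 at 1.5 nM. Neighbours in this order, such as ATP6V1B2 and LAMP2, have no replicate spread by which to separate them. A level of 100 TPM or more was reached by 14 genes in untreated cells, 16 at 0.5 nM and 17 at 1.5 nM.

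**Figure D3:**
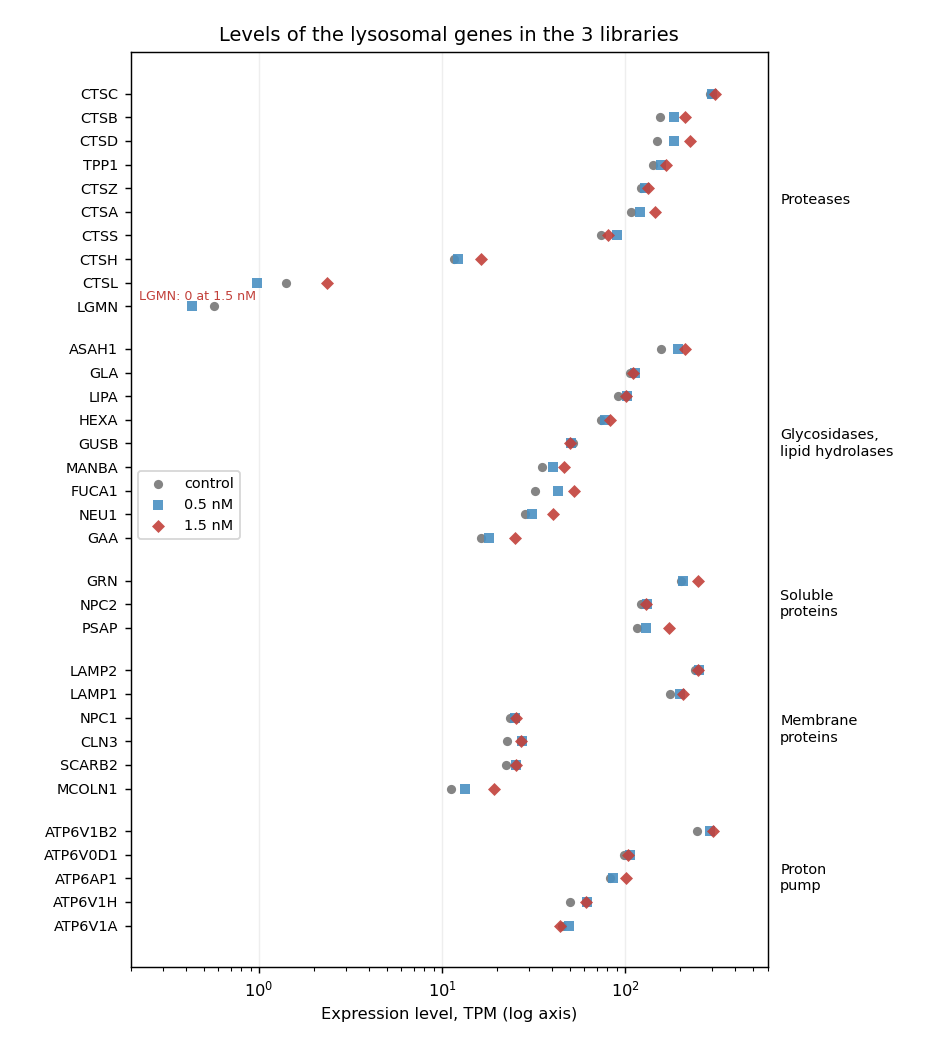
Level of each of the 33 lysosomal genes in TPM (x axis, log scale) in untreated (control, grey circles), 0.5 nM (blue squares) and 1.5 nM (red diamonds) libraries, ordered within each role by the control. CTSC, ATP6V1B2, LAMP2 and GRN lie furthest right in all 3 libraries, and LGMN, at 0 in the 1.5 nM library, has no red point.

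Among the proteases, CTSD, CTSA and CTSB combined high levels with the clearest steps. CTSD (ENSG00000117984) encodes cathepsin D, the main aspartic protease of lysosomes. Its level was 148.5 TPM in untreated cells, 184.2 TPM at 0.5 nM and 227.0 TPM at 1.5 nM. The untreated cells were lowest and the cells at the higher dose highest, with log2 ratios to the control of 0.23 [0.16, 0.30] at 0.5 nM and 0.58 [0.52, 0.65] at 1.5 nM, the second being 1.50-fold. CTSB (ENSG00000164733) encodes cathepsin B, a cysteine protease that also cleaves the linkers of some antibody-drug conjugates. It stood at 155.4 TPM in untreated cells, 184.9 TPM at 0.5 nM and 211.6 TPM at 1.5 nM. Its log2 ratios of 0.17 [0.11, 0.24] and 0.40 [0.34, 0.47] put it in the same order as CTSD. CTSA (ENSG00000064601), the serine carboxypeptidase that also protects neuraminidase and beta-galactosidase, had 107.2, 120.2 and 146.5 TPM with rising dose. Its ratio was 0.094 [0.005, 0.18] at 0.5 nM and 0.42 [0.33, 0.50] at 1.5 nM. CTSA and CTSD are uncertain, because their counts were not whole numbers, which can happen when reads are split between genes.

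The remaining proteases were spread from no difference to the largest ratio of the set. CTSC (ENSG00000109861), the dipeptidyl peptidase that activates granule serine proteases, had 291.9, 298.9 and 309.4 TPM with rising dose, and a ratio of 0.029 [-0.026, 0.085] at 1.5 nM. CTSZ (ENSG00000101160), a carboxypeptidase, had 122.4, 128.6 and 133.7 TPM and 0.014 [-0.073, 0.10], and its counts were not whole. These abundant genes stood at about the control's level at both doses. TPP1 (ENSG00000166340), the tripeptidyl peptidase lacking in a form of Batten disease, had 141.7, 157.2 and 167.0 TPM, with 0.079 [0.021, 0.14] at 0.5 nM and 0.21 [0.16, 0.27] at 1.5 nM. CTSS (ENSG00000163131), the cathepsin that trims the invariant chain of MHC class II, had 73.5 TPM in untreated cells, 90.03 TPM at 0.5 nM and 80.6 TPM at 1.5 nM. Unlike CTSA, CTSB, CTSC, CTSD, CTSZ and TPP1 it was highest at 0.5 nM, with a ratio of 0.31 [0.21, 0.41] there, 0.21 [0.10, 0.31] at 1.5 nM and -0.10 [-0.21, 0.004] between the doses. With the trend in transcript GC content removed, as described below, the doses of CTSS stood level. Its ratios on that scale were 0.246 at 0.5 nM, 0.236 at 1.5 nM and -0.007 between the doses. CTSH (ENSG00000103811), an aminopeptidase, was less abundant, with 185 counts in untreated cells, 144 at 0.5 nM and 197 at 1.5 nM, and its ratio at 1.5 nM was 0.46 [0.17, 0.76].

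The least abundant proteases were CTSL and LGMN. CTSL (ENSG00000135047), cathepsin L, had 24 counts in untreated cells, 14 at 0.5 nM and 35 at 1.5 nM. Its ratio of 0.86 [0.13, 1.73] at 1.5 nM was the largest of the members, and the 0.5 nM library lay below the control with -0.325 [-1.43, 0.65]. At these counts the intervals span more than the ratios of the abundant cathepsins. LGMN (ENSG00000100600), the asparaginyl endopeptidase legumain, had 12 counts in untreated cells, 6 at 0.5 nM and 0 at 1.5 nM and did not reach 1 CPM on average. Set against a floor of 3 counts in the 1.5 nM library, it was at least 3.08-fold lower there than in untreated cells if their 12 counts are taken as exact. The counting interval of the log2 ratio, which allows for error in both counts, reaches up to -1.10. It is the 1 member of 33 left out of the counts and medians above. Over the 9 analysed proteases the median was 0.079 at 0.5 nM and 0.40 at 1.5 nM. All 9 stood above 0 at 1.5 nM, against 49.8% of all genes.

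The glycosidases and lipid hydrolases divided into 5 genes past 0.322 at 1.5 nM and 4 genes near the control. Of all genes, 12.0% were that much higher. FUCA1 (ENSG00000179163), which removes fucose from glycoproteins, had 32.2 TPM in untreated cells, 43.1 TPM at 0.5 nM and 52.3 TPM at 1.5 nM. Of the members with more than 100 counts in each library it had the largest ratio at both doses, 0.35 [0.20, 0.50] at 0.5 nM and 0.66 [0.52, 0.80], or 1.58-fold, at 1.5 nM. GAA (ENSG00000171298), the acid alpha-glucosidase that degrades lysosomal glycogen and is lacking in Pompe disease, had 16.3, 18.1 and 24.9 TPM with rising dose. Its 0.5 nM library was within counting error of the control at 0.077 [-0.091, 0.25], and the 1.5 nM library stood at 0.57 [0.42, 0.73]. NEU1 (ENSG00000204386), the sialidase held in a complex with the CTSA protein, had the same shape, with 28.3, 31.2 and 40.6 TPM and ratios of 0.090 [-0.064, 0.24] and 0.47 [0.33, 0.62].

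ASAH1 (ENSG00000104763), the acid ceramidase, was the most abundant of this class. Its level was 157.3 TPM in untreated cells, 194.4 TPM at 0.5 nM and 212.5 TPM at 1.5 nM, with ratios of 0.24 [0.17, 0.31] and 0.43 [0.36, 0.49]. MANBA (ENSG00000109323), a beta-mannosidase, had 34.99, 40.2 and 46.5 TPM with rising dose and ratios of 0.17 [0.038, 0.29] and 0.39 [0.27, 0.51]. For both of these the step to 0.5 nM, as normalised, already lay outside counting error. With the GC trend removed it was smaller, 0.165 for ASAH1 and 0.117 for MANBA, and no interval was computed on that scale. LIPA (ENSG00000107798), which cleaves cholesteryl esters from lipoproteins, had 91.4, 102.9 and 101.3 TPM and ratios of 0.099 and 0.11, so the doses stood level. HEXA (ENSG00000213614), a subunit of the hexosaminidase lacking in Tay-Sachs disease, had 73.6, 77.2 and 82.3 TPM and 0.091 [-0.018, 0.20] at 1.5 nM and counts that were not whole. GLA (ENSG00000102393), the alpha-galactosidase of Fabry disease, had 106.2, 112.7 and 110.8 TPM and 0.026 [-0.081, 0.13] at 1.5 nM. GUSB (ENSG00000169919), beta-glucuronidase, was the only hydrolase below the control, with 52.2, 50.7 and 49.9 TPM and a ratio of -0.10 [-0.23, 0.020] at 1.5 nM. The class median was 0.090 at 0.5 nM and 0.39 at 1.5 nM.

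The soluble proteins without enzyme activity differed mostly between the doses. PSAP (ENSG00000197746) encodes prosaposin, from which the activators of sphingolipid hydrolases are cut. It had 115.8 TPM in untreated cells, 130.5 TPM at 0.5 nM and 173.7 TPM at 1.5 nM. The ratio was 0.039 [-0.035, 0.11] at 0.5 nM and 0.56 [0.49, 0.62] at 1.5 nM, and 0.52 [0.45, 0.59] between the doses. GRN (ENSG00000030582), progranulin, had 200.9, 208.4 and 250.6 TPM with rising dose, and ratios of -0.032 [-0.097, 0.034] and 0.33 [0.27, 0.39]. By these ratios both genes stood within counting error of the control at 0.5 nM and above it at 1.5 nM. Taken as log2(TPM + 1), the ratio at 0.5 nM was 0.17 for PSAP and 0.053 for GRN, where the median of all genes was 0.058. NPC2 (ENSG00000119655), which hands cholesterol to the NPC1 protein, had 122.1, 131.1 and 129.9 TPM and a ratio of 0.11 [-0.026, 0.25] at 1.5 nM.

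All 6 membrane protein genes stood above 0 at both doses, where 50.6% of all genes did at 0.5 nM and 49.8% at 1.5 nM. With the trend in transcript GC content removed, as described below, it was 5 of 6 at 0.5 nM. Only MCOLN1 passed 0.322, at 1.5 nM, where 12.0% of all genes were that much higher. MCOLN1 (ENSG00000090674) encodes the calcium channel TRPML1, which takes part in lysosome signalling. It was the least abundant of the class, with 256 counts or 11.1 TPM in untreated cells, 215 counts or 13.3 TPM at 0.5 nM and 292 counts or 19.2 TPM at 1.5 nM. The highest dose was the highest library, with a ratio of 0.56 [0.32, 0.81], against 0.16 [-0.10, 0.43] at 0.5 nM. LAMP1 and LAMP2 are the heavily glycosylated proteins that line the lysosomal membrane, and LAMP2 also serves chaperone-mediated autophagy. LAMP1 (ENSG00000185896) had 177.0 TPM in untreated cells, 198.8 TPM at 0.5 nM and 207.0 TPM at 1.5 nM, and a ratio of 0.19 [0.13, 0.25] at 1.5 nM. LAMP2 (ENSG00000005893), with 11104 counts in untreated cells the best counted member, had 240.6, 252.1 and 251.6 TPM and a ratio of 0.009 [-0.032, 0.050]. Its interval lies wholly inside the threshold of 0.322 in either direction.

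The other membrane proteins were less abundant and their doses stood level. NPC1 (ENSG00000141458), which moves cholesterol out of the lysosome, had 23.5, 25.1 and 25.3 TPM and 0.17 [0.043, 0.30] at 1.5 nM, with counts that were not whole. SCARB2 (ENSG00000138760), a membrane glycoprotein of lysosomes, had 22.3, 25.5 and 25.3 TPM and 0.15 [0.029, 0.28]. CLN3 (ENSG00000188603), mutated in juvenile Batten disease, had 22.5, 27.5 and 27.0 TPM and 0.13 [-0.074, 0.34], again with counts that were not whole. The class median was 0.11 at 0.5 nM and 0.16 at 1.5 nM, and 0.032 at 1.5 nM against 0.5 nM. Whether any class differs from another cannot be tested with 1 library per group.

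The log2 ratios of the proton pump genes stayed inside the threshold of 0.322 at both doses. The pump has a V1 part, which burns ATP, and a V0 part, which carries protons through the membrane. ATP6V1B2 (ENSG00000147416), the B subunit of V1, had 246.2 TPM in untreated cells, 290.7 TPM at 0.5 nM and 301.8 TPM at 1.5 nM, with ratios of 0.18 [0.13, 0.22] and 0.26 [0.21, 0.30]. ATP6V1A (ENSG00000114573), the A subunit that shares the ATP-binding site with B, had 45.2, 49.1 and 44.0 TPM with rising dose, and ratios of 0.041 [-0.049, 0.13] and -0.077 [-0.17, 0.014]. The partners in the catalytic ring thus stood on opposite sides of the control at 1.5 nM, with B outside counting error and A within it. ATP6V1H (ENSG00000047249), a regulatory V1 subunit, had 49.8, 61.9 and 60.8 TPM and 0.27 [0.15, 0.39] at 1.5 nM. ATP6V0D1 (ENSG00000159720), a V0 subunit, had 99.0, 106.1 and 103.4 TPM and 0.055 [-0.048, 0.16]. ATP6AP1 (ENSG00000071553), an accessory protein of pump assembly, had 82.6, 85.6 and 101.6 TPM and 0.24 [0.15, 0.34].

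The rest of the pump also leaned above 0. Of 19 further subunit and accessory genes listed, 16 were analysed, and 16 of these stood above 0 at 1.5 nM with a median of 0.16, against 49.8% of all genes. Past 0.322 at 1.5 nM stood 3 of the 16, against 12.0% of all genes. At 0.5 nM 12 of 16 stood above 0, with a median of 0.074, against 50.6% of all genes. With the 5 genes above included, 20 of 21 analysed pump genes stood above 0 at 1.5 nM and 16 of 21 at 0.5 nM. ATP6V1A was the exception at 1.5 nM. ATP6V0A1, an a-subunit isoform of V0, had 14.7 TPM in untreated cells, 21.5 TPM at 0.5 nM and 22.04 TPM at 1.5 nM. It was the only pump gene with more than 100 counts in each library past 0.322 at 0.5 nM, with 0.54 [0.38, 0.70] there and 0.62 [0.47, 0.78] at 1.5 nM. The other a-subunit genes had ratios of 0.31 for TCIRG1 and 0.10 for ATP6V0A2 at 1.5 nM. Most other subunits lay between 0 and the threshold. ATP6V0B had 0.31, ATP6V1E1 0.25, ATP6V0C 0.21 and ATP6V1F 0.16. Closer to 0 lay ATP6V0E1, ATP6V1C1, ATP6V1D and ATP6V1G1, each with 0.08, ATP6V1C2 with 0.04 and ATP6AP2 with 0.03. ATP6V1E2 had 0.81 from 23 counts at 1.5 nM and 16 in untreated cells, ATP6V0E2 had 0.36 from 41 and 41 counts, and ATP6V1G2 had 0.16 from 20 and 23 counts. The isoform genes ATP6V0A4, ATP6V0D2 and ATP6V1B1 had 0 counts in every library, which at the floor of 3 counts allows up to 0.136 CPM without drug, 0.182 CPM at 0.5 nM and 0.177 CPM at 1.5 nM. Counts of ATP6V0C and ATP6V1C2 were not whole.

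Lysosomal genes outside the 33 leaned the same way with a smaller median. Over 84 analysed genes for other proteases, hydrolases, membrane proteins and pump subunits, 67 stood above 0 at 1.5 nM, with a median of 0.14, and 58 at 0.5 nM, with a median of 0.070, where 49.8% and 50.6% of all genes stood above 0 in that order. Past 0.322 at 1.5 nM, 19 stood higher and 4 lower, against the background of 12.0% and 8.96%. The KEGG lysosome genes of the table without the 33 gave 61 of 88 above 0 at 1.5 nM, again against 49.8% of all genes, and a median of 0.10. The median ratio at 1.5 nM by list was 0.31 for 9 other proteases, 0.14 for 32 other hydrolases and 0.090 for 27 other membrane proteins. Among the other proteases the carboxypeptidase gene CPQ had 0.60 [0.42, 0.79], CTSO 0.31 and DPP7 0.15. CTSW, a cathepsin of cytotoxic lymphocytes, had 1.18 [0.52, 2.02] at 1.5 nM from 46 counts at 1.5 nM and 25 in untreated cells.

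Among the other hydrolases, DNASE2, which degrades DNA in lysosomes, stood at 0.62 [0.42, 0.83] at 1.5 nM. SMPD1, the acid sphingomyelinase, had 0.62 at 0.5 nM and 0.43 at 1.5 nM, and the sulphatase gene ARSG 0.35. In the membrane list, CD68, a macrophage lysosome glycoprotein, had 43.6 TPM in untreated cells, 59.5 TPM at 0.5 nM and 67.9 TPM at 1.5 nM, with ratios of 0.37 and 0.60 [0.47, 0.73]. The chloride-proton exchanger gene CLCN7 had 0.40 and the tetraspanin gene CD63 0.25, while PIP4P1, a phosphoinositide phosphatase gene, had -0.40. LAPTM4B had -1.0 [-1.73, -0.40], with 75 counts in untreated cells, 61 at 0.5 nM and 28 at 1.5 nM. SLC46A3 encodes the transporter known to carry maytansinoid breakdown products from the lysosome into the cytosol. It had 13.2 TPM in untreated cells, 14.7 TPM at 0.5 nM and 12.9 TPM at 1.5 nM, and ratios of 0.078 [-0.12, 0.27] and -0.064 [-0.27, 0.14], both within counting error of the control.

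Lists that act on lysosomal enzymes were then set beside the enzymes. For cathepsin inhibitors, 5 of the 6 analysed genes stood above 0 at 1.5 nM, against 49.8% of all genes, and the median was 0.26. CST3, cystatin C, had 346.4 TPM in untreated cells, 378.2 TPM at 0.5 nM and 476.6 TPM at 1.5 nM, a level above that of each cathepsin, and a ratio of 0.42 [0.35, 0.49] at 1.5 nM. SERPINB1 had 0.40 and CSTB, a cytosolic inhibitor of cathepsins, 0.20. Among 13 genes of enzyme delivery the median was 0.15, with the sorting receptor gene SORL1 at 0.58, NAGPA at 0.34 and the mannose 6-phosphate receptor gene IGF2R at 0.28. SORT1 had 1.22 [0.64, 1.94] at 0.5 nM from 60 counts at 0.5 nM and 33 in untreated cells. The 17 fusion and Ragulator genes lay near 0, with -0.010 at 0.5 nM and 0.052 at 1.5 nM, and among them RRAGD had 0.36, RRAGA -0.34 and VPS16 0.22. The 6 analysed genes of the lysosome damage list had 0.16 at 1.5 nM, with PLIN2 at 0.40, LGALS1 at 0.38 and PI4K2A at -0.22. CPVL, RRAGB and LGALS3 from these lists averaged below 1 CPM and passed 2-fold in some comparison on at most 10 counts each, so no ratio is given.

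**Figure D4:**
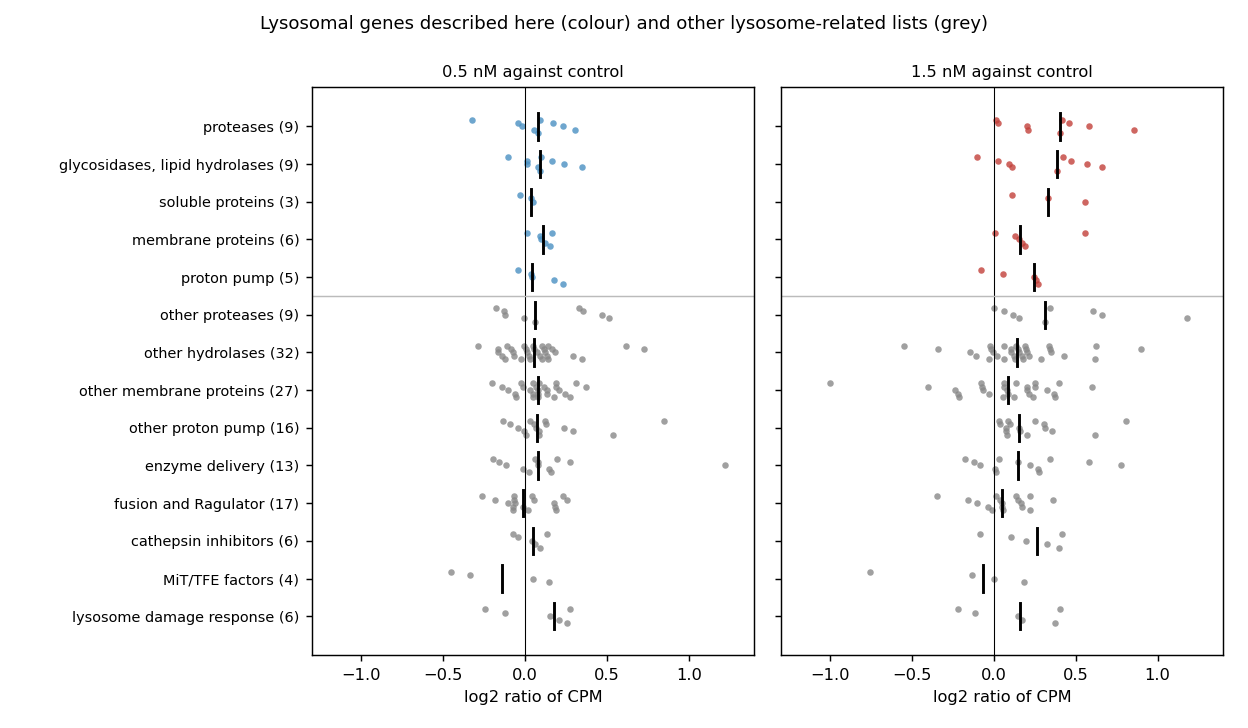
Log2 ratio (x axis) of each analysed gene by list (y axis, number of genes in brackets) at 0.5 nM against control and 1.5 nM against control, with the 33-gene set's roles in colour, the other lists in grey and black bars at the medians. At 1.5 nM the medians of proteases, 0.40, and of glycosidases and lipid hydrolases, 0.39, lie furthest right.

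TFEB, TFE3, MITF and TFEC are transcription factors of a family that binds the E-box core CACGTG. TFEB, TFE3 and MITF are known to switch on lysosomal genes, which they do mainly through their location in the cell. The transcripts of the 4 factors pointed in no common direction. TFEB had 7.23 TPM in untreated cells, 5.48 TPM at 0.5 nM and 6.82 TPM at 1.5 nM, with ratios of -0.45 [-0.82, -0.11] and -0.13 [-0.46, 0.20]. TFE3 had 0.048 and 0.18, TFEC 0.15 and 0.003, and MITF -0.33 and -0.75, the last from 18 counts at 1.5 nM and 41 in untreated cells. TFEC was the most abundant of the 4, with 46.2 TPM in untreated cells, 53.9 TPM at 0.5 nM and 47.0 TPM at 1.5 nM.

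The promoter windows of the members were read from RefSeq (build GRCh38.p14), each from 250 bases before to 50 bases after an annotated gene start, and 22 of the 33 genes had a window. CTSB, CTSS, LGMN, HEXA, MANBA, ASAH1, PSAP, LAMP2, ATP6V1A, ATP6V1B2 and ATP6V1H had none in the table used. The letters CACGTG, which read the same on both strands, were found in 8 of the 22 genes (36.4%). They were found in 12.9% of the 9208 analysed genes with a window, in 33 of 110 genes from the other lists above and in 7.26% of all 35116 windows. In all 8 members the core was followed by A or preceded by T in at least 1 place, which held for 7.45% of the analysed genes with a window. That longer form contains the core, so the 2 searches overlap. The 8 genes are CTSA, CTSD, GAA, NEU1, LAMP1, MCOLN1, CLN3 and ATP6V0D1. Whole windows are shown for CTSD and MCOLN1, which stood past 0.322 at 1.5 nM, for LAMP1, which holds the core 6 times, and for FUCA1, which lacks it. They lie at chr11:1763878-1764177 (minus strand), chr19:7522374-7522673 (plus strand), chr13:113296989-113297288 (plus strand) and chr1:23868241-23868540 (minus strand), and are written along the strand of the gene with the core in capitals.
CTSD: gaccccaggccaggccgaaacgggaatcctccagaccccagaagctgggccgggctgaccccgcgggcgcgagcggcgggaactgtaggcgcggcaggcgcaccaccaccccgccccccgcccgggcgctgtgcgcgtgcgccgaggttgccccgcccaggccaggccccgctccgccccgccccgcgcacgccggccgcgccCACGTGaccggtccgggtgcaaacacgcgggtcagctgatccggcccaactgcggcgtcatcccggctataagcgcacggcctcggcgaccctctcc
MCOLN1: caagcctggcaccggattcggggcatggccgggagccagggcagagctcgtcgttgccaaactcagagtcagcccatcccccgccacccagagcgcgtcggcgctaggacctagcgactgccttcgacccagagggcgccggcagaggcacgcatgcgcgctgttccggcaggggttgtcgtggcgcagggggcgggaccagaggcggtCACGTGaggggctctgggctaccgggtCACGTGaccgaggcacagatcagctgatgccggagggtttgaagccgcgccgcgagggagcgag
LAMP1: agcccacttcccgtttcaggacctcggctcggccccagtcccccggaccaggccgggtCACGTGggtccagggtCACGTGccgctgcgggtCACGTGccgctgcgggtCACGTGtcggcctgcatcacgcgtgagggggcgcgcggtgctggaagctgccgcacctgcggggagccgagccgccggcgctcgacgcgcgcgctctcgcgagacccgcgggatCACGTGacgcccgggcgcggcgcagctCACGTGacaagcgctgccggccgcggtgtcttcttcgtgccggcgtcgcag
FUCA1: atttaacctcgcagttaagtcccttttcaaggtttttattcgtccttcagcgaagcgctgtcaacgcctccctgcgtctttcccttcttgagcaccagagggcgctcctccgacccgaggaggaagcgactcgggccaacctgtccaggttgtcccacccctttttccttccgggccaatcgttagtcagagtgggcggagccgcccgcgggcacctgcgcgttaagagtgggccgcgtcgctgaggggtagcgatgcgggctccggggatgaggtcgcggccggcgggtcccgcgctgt

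Stretches of 30 bases around the core, again in capitals, are shown for the other genes that hold it, since the flanking letters differ between them.
CTSA (site 1): gaggaagactgtCACGTGgcgccggagttc
CTSA (site 2): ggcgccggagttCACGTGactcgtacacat
GAA (site 1): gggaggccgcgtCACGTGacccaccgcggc
GAA (site 2): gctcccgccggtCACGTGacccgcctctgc
NEU1: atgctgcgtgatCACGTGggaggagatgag
CLN3 (site 1): aaaacctctgagCACGTGatgggggaacac
CLN3 (site 2): cgcgggtgctgtCACGTGatccgacaaacg
ATP6V0D1: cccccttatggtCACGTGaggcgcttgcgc

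The ratios of these genes can be read beside their promoters. At 1.5 nM the 8 members with the core had a median log2 ratio of 0.44, with 5 of 8 past 0.322, and the 14 analysed members whose windows lack it had 0.16, with 4 of 14. The 10 analysed members with no window, which belong to neither group, had 0.265, with 4 of 10. Among all analysed genes, 116 of 1192 with the core and 932 of 8032 without it stood that much higher. The ranges overlapped, from 0.055 for ATP6V0D1 to 0.58 for CTSD with the core, and from -0.10 for GUSB to 0.86 for CTSL without it. At 0.5 nM the medians were 0.094 with the core and 0.032 without it. With the GC trend removed, as described below, the medians at 1.5 nM were 0.41 with the core and 0.17 without it. Between the doses they were 0.199 and 0.099 on that scale, against 0.336 and 0.059 as normalised. Among all analysed genes, those with the core had a median of -0.005 at 1.5 nM and those without it -0.002. LAMP1, with 6 cores, had 0.19, and FUCA1, with none, had 0.66. These are single examples, and whether the number of cores goes with the ratio was not tested. A match in the letters is a description and shows no binding.

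Transcript GC content moved with the ratios and differed between these genes. Across all 11252 genes with a GC value, the Spearman correlation of GC content with the ratio was -0.27 at 0.5 nM against control, 0.13 at 1.5 nM against control and 0.40 at 1.5 nM against 0.5 nM. Among the 32 members it was -0.24, 0.35 and 0.52 in that order, over genes that share the same 3 libraries. The members had a median GC content of 50.9%, against 48.0% for all genes, and the 8 with the core in their window 59.4%, against 50.5% for the 14 without. CTSD, GAA, MCOLN1, GRN and CTSA are the 5 members above 60% GC. All 5 stood past 0.322 at 1.5 nM, where 12.0% of all genes were that much higher. With the median trend over 20 GC bins removed, the members' median was 0.10 at 0.5 nM, 0.23 at 1.5 nM and 0.13 between the doses. On that scale the ratio at 1.5 nM was 0.54 for CTSD, 0.52 for GAA, 0.50 for MCOLN1, 0.35 for CTSA and 0.27 for GRN. Between the doses it was 0.20 for CTSD, against 0.35 as normalised, and 0.25 for MCOLN1, against 0.40. The 16 members of higher GC content had a median of 0.37 at 1.5 nM with the trend removed and the 16 of lower GC content 0.17. The part of GC content in these ratios beyond that correction was not tested.

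**Figure D5:**
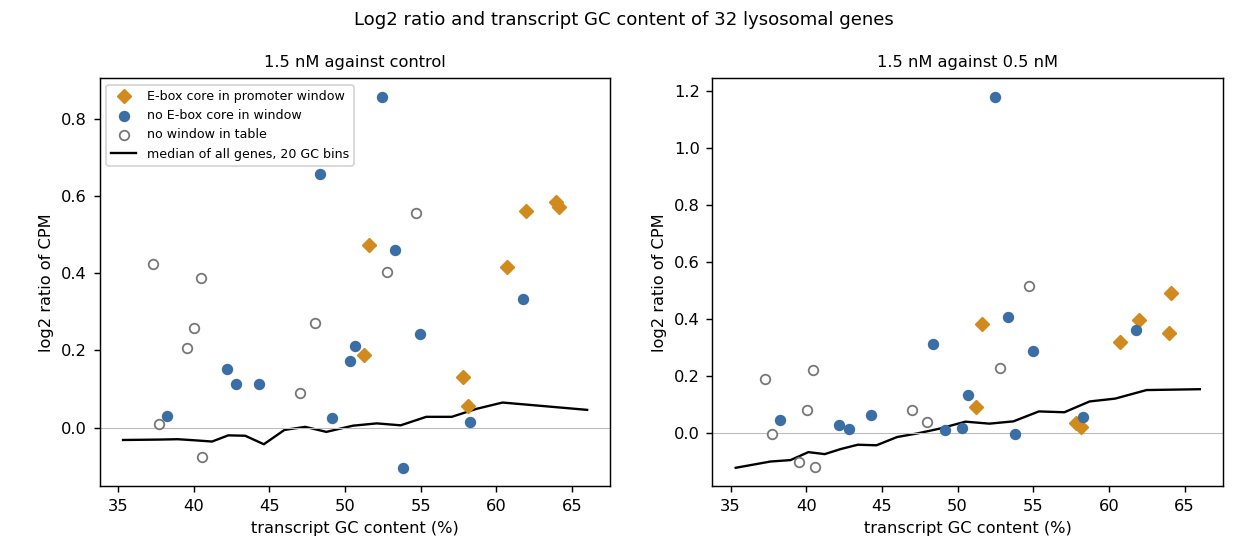
Log2 ratio (y axis) against transcript GC content in percent (x axis) for the 32 analysed members at 1.5 nM against control and 1.5 nM against 0.5 nM, marked by whether the promoter window holds the E-box core, with the median of all genes in 20 GC bins as a black line. Members lie mostly above the line, and the line itself climbs with GC content between the doses, where the Spearman correlation over all genes was 0.40.

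Myelomonocytic markers pointed in both directions at 1.5 nM. There 7 of the 12 stood above 0, against 49.8% of all genes, with a median of 0.11. They ranged from -0.37 for HOXA9 to 0.35 for CSF1R. At 0.5 nM 3 of the 12 markers stood above 0, against 50.6% of all genes, with a median of -0.046. Their summed level was 3741 TPM in untreated cells, 3693 TPM at 0.5 nM and 4514 TPM at 1.5 nM, most of it from LYZ, the lysozyme gene, at 2676, 2583 and 3405 TPM. Their part in the lysosomal ratios was not tested, and in bulk RNA a different share of cells in a given state and a different amount of RNA per cell cannot be told apart.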

How the data were processed

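RNA of 3 cultures was sequenced, with 1 library per group. The authors deposited a table that gives each gene an estimated count and its TPM in each library. The estimated counts carry no normalisation, and 12.0% to 12.7% of them in a library were not whole. TPM, as deposited, corrects for gene length and for the library total. Tools named in the submitters' processing notes are fastp 0.18.0, StringTie 1.3.1, HISAT2, edgeR and DESeq2. Which step each served, and the genome build and annotation behind the table, is not given in the sources used here.

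Here the estimated counts were rounded and scaled by TMM (edgeR 4.0.16 under R 4.3.3; factors 0.987 for control, 1.005 for 0.5 nM, 1.008 for 1.5 nM). Log2 CPM took a prior count of 2, and analysed genes averaged at least 1 CPM. A log2 ratio is the difference between 2 libraries, with an exact Clopper-Pearson interval at 95% from the 2 counts. PCR copies are not independent molecules, so intervals and the floor of 3 counts cover counting error only. No test between groups was run. Thresholds were a log2 ratio of 0.322 (in magnitude) and 2-fold. GC content came from the longest GENCODE 29 transcript of a gene. The steps were tested on simulated data.

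The members and lists were chosen with earlier results of these data known. Genes were named by rule: all members, genes of the other lists past 2-fold, the 3 largest ratios at 1.5 nM in each list where the mean reached 5 CPM, all pump subunits, and SLC46A3, TFEB, TFE3, MITF, TFEC, CD63, CD68, CST3 and CSTB. Some genes this rule names are not reported here. Alternatives were DESeq2 size factors, library totals, other CPM minimums and prior counts, TPM, whole counts only and removal of the GC trend.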

Additional observations from a re-analysis of the deposited data

How the results depend on the processing

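Over 8 alternatives, the members' median log2 ratio ranged from 0.078 to 0.147 at 0.5 nM against control, from 0.212 to 0.267 at 1.5 nM against control and from 0.072 to 0.126 at 1.5 nM against 0.5 nM. Members above 0 at 1.5 nM against control numbered 29 or 30 of 31 to 33 genes, and 24 of 26 with whole-count genes alone. Between the doses the count was 21 of 32 on log2(TPM + 1) and 24 of 32 with the GC trend removed, against 28 of 32. The pump genes' median at 1.5 nM against 0.5 nM turned to -0.025 on log2(TPM + 1), against 0.039, and the cause was not tested. In TPM the median of all genes itself lay at 0.058 at 0.5 nM and 0.030 at 1.5 nM against control. Between the doses, 1.5 nM against 0.5 nM, it lay at -0.029 on that scale. At 0.5 nM against control, 4 members changed sign on log2(TPM + 1) and 5 with the GC trend removed, with GRN among both. No paired analysis was possible because each group has 1 library. Counting error limits CTSL, CTSH, MCOLN1 and LGMN most.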
